A study of Mus musculus with 2 samples.

Results

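The genes described here encode the SR proteins, the Tra2 proteins, the heterogeneous nuclear ribonucleoproteins (hnRNPs), further regulators of alternative splicing and the kinases that phosphorylate SR proteins. They were chosen by mouse gene symbol among protein-coding genes of GENCODE M21, which gave 47 genes of the 38087 Ensembl identifiers measured. The RNA came from parietal cells, which secrete gastric acid, sorted from stomachs of C57BL/6 mice. There was 1 library of ribosome-depleted total RNA from mice on a high fat diet (HFD) and 1 from mice on a control diet. No source used here gives the number of mice in a library, their age, how long they were fed or how the cells were recognised in the sort. With 1 library per diet no difference could be tested, and every difference below is between these 2 libraries.

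Splicing removes introns from precursor RNA, and the choice of exons depends on proteins that bind the precursor and help or hinder the spliceosome. SR proteins carry a domain rich in arginine and serine, and mostly favour use of the exons they bind, whereas hnRNPs often act against it. Kinases of the CLK and SRPK families phosphorylate the arginine and serine domain and so set where SR proteins lie in the cell and how active they are. Many of these genes limit their own output by making transcripts that hold a premature stop codon or keep an intron.

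Values are RPKM, reads per kilobase of gene and per M reads, and genes at or below 1 RPKM were deposited as 0. The deposited numbers are log2 of these values. The steps between low values of single-exon genes correspond to about 25.5 M reads in HFD and 9.84 M reads in control, so the same RPKM rested on 2.59 times as many reads in the HFD library. Ratios between the libraries are of RPKM and come with an approximate 95% interval from estimated reads, which covers counting error and not variation between mice. Of 18 parietal markers 17 were above 0 in HFD and all 18 in control, with summed levels of 13901 RPKM in HFD and 10951 RPKM in control. Markers of other cells were present too, those of chief cells and pit cells at higher sums than the parietal ones in both libraries, so the markers do not show the label to hold for all cells. Chief cell markers summed to 45654 RPKM in HFD and 102380 RPKM in control, gastric endocrine markers to 1211 RPKM in HFD and 8298 RPKM in control, and pancreatic acinar markers to 1831 RPKM in HFD and 13741 RPKM in control, with 9 of 12 acinar genes listed at 0 in HFD. Pgc made up nearly all of the chief cell sums, and Clps most of the acinar sums. Of 3 measured chief cell genes 2 were lower in HFD, and Bhlha15 had a ratio of 1.22. Of 7 endocrine genes 6 were lower, and Gast had a ratio of 1.16. Cell cycle genes summed to 161 RPKM in HFD and 381 RPKM in control, with 21 of 22 lower in HFD and Ccnb1 and Tyms at 0 there, and the leukocyte markers Ptprc, Cd3e, Cd79a and Itgam were at 0 in both libraries. Pit cell markers summed to 36084 RPKM in HFD and 14598 RPKM in control, neck cell markers to 7554 RPKM in HFD and 8589 RPKM in control, fibroblast markers to 46.9 RPKM in HFD and 143 RPKM in control, smooth muscle markers to 25.6 RPKM in HFD and 179 RPKM in control, and leukocyte markers to 36.2 RPKM in HFD and 11.0 RPKM in control. The pit cell sums were led by Gkn1, at 21736 RPKM in HFD and 5021 RPKM in control, and Gkn2, with a ratio of 2.38. Muc5ac, Psca and Tff1 had ratios of 1.31, 1.02 and 0.986, and Gkn3 was 2.89 times lower in HFD. The part of these cells in the differences below was not tested, and fewer cells of a type and less RNA per cell cannot be told apart in such libraries.

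The splicing regulators were expressed at intermediate to high levels and, as deposited, differed little between the libraries as a group. All but 1 of the 47 genes were listed in both libraries, and the exception, Srsf12, was at 0 in both. Levels ran from 2.53 to 58.8 RPKM in HFD (median 14.2) and from 3.38 to 86.4 RPKM in control (median 14.3). Across the 46 measured genes the median difference on the log2(RPKM + 1) scale was -0.15, HFD minus control, with quartiles of -0.37 and 0.29. Over all 11976 measured protein-coding genes the median was -0.11, with quartiles of -0.75 and 0.37. Higher in HFD were 19 of the 46 genes, against a background of 44% of measured coding genes, and lower were 27, against a background of 56%. Both the median and the split turned with the scaling. With HFD values brought to the summed RPKM of coding genes in control the median was 0.13, with 30 higher and 16 lower, and with the total less the 20 most abundant genes it was -0.73, with 5 higher and 41 lower. The median of coding genes moved along, to 0.14 and -0.61. The whole group made up 0.312% of coding RPKM in HFD and 0.275% in control.

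**Figure D1:**
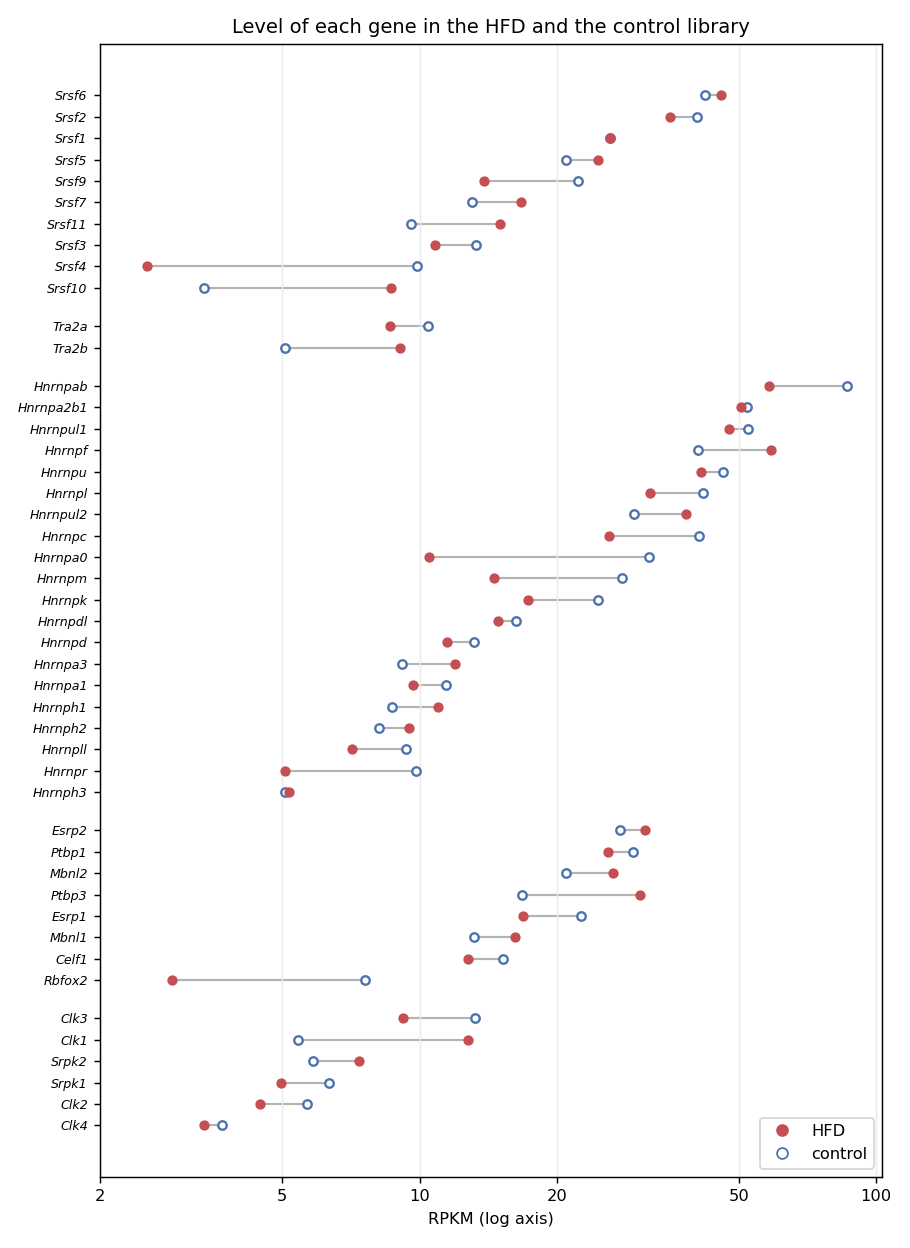
RPKM of the 46 measured genes on a log axis, HFD as filled and control as open points, grouped from top to bottom into SR proteins, Tra2 proteins, hnRNPs, other regulators and kinases. Most pairs of points lie close together, while Srsf4, Srsf10, Hnrnpa0, Rbfox2 and Clk1 are far apart.

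A difference within 1.5-fold on the log2(RPKM + 1) scale was found for 34 of 46 genes, where the background was 53.4% of measured coding genes. Among the 7839 coding genes whose mean level lay within the range of the splicing genes, 3.53 to 72.4 RPKM, it was 62.2%. Over 2-fold higher in HFD were 2 genes, Srsf10 and Clk1, against a background of 8.02% of measured coding genes and 4.92% of those of like level. Over 2-fold lower were 3 genes, Srsf4, Hnrnpa0 and Rbfox2, against backgrounds of 20.1% and 10.8%. No gene of the group was listed in 1 library only, which happened for 16.5% of measured coding genes. The counting interval lay above 1 for 17 genes and below 1 for 25, with backgrounds of 37.8% and 42.1% of coding genes listed in both libraries, so at this depth most coding genes, too, had an interval clear of 1.

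Srsf10 encodes an SR protein that turns into a general repressor of splicing when it loses its phosphates, as after heat shock. Srsf10 (ENSMUSG00000028676, chromosome 4, 135855747 to 135869908, plus strand, GRCm38) stood at 8.65 RPKM in HFD and 3.38 RPKM in control, a ratio of 2.56 (interval 2.23 to 2.95). It was the lowest of the measured SR genes in the control library, and in HFD it lay above Srsf4 alone. Clk1, which encodes a nuclear kinase of SR proteins, stood at 12.7 RPKM in HFD and 5.43 RPKM in control, a ratio of 2.35 (2.12 to 2.60; ENSMUSG00000026034, chromosome 1, 58410189 to 58424066, minus strand). Both genes were also higher in HFD under 4 other scalings, with ratios of 1.68 to 3.14 for Srsf10 and 1.54 to 2.88 for Clk1. After a trend on length and GC content, Clk1 stood at a ratio of 1.85 and Srsf10 at 2.16, and on the log2(RPKM + 1) scale neither passed 2-fold (0.75 for Clk1 and 0.89 for Srsf10).

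The largest deficit was that of Srsf4, a long SR protein with an extended arginine and serine domain. Srsf4 (ENSMUSG00000028911, chromosome 4, 131873617 to 131901706, plus strand) stood at 2.53 RPKM in HFD and 9.85 RPKM in control, 3.89 times lower in HFD (interval 3.28 to 4.62). Among coding genes listed in a library it lay at percentile 17.0 of levels in HFD and 62.3 in control. Hnrnpa0, a gene without introns whose protein binds RNA rich in A and U, stood at 10.5 RPKM in HFD and 31.9 RPKM in control, 3.04 times lower (2.75 to 3.37; ENSMUSG00000007836, chromosome 13, 58125879 to 58128556, minus strand). Rbfox2, a regulator that promotes or blocks exons according to the side on which it binds, stood at 2.87 RPKM in HFD and 7.60 RPKM in control, 2.65 times lower (2.36 to 2.97; ENSMUSG00000033565, chromosome 15, 77078990 to 77307004, minus strand). These 3 genes were lower under all 4 other scalings, with ratios of 0.169 to 0.315 for Srsf4, 0.216 to 0.403 for Hnrnpa0 and 0.248 to 0.462 for Rbfox2. An exon of Srsf4 overlaps Gm12992 on the opposite strand, which was at 2.04 RPKM in HFD and 4.15 RPKM in control, and no source used here says whether the counting used strand.

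The bases before the start of both genes with the largest deficit are shown because they are alike in being dense in CG. They come from RefSeq on GRCm38.p6, from 250 bases before the start, leaving out the annotated first exon. Capitals mark matches on either strand to 9 short motifs, which were the TATA box TATAAA, the CCAAT box, the GC box GGGCGG, the ETS motif CCGGAAG, the E2F motif GCGGGAA, the cAMP response element (CRE) TGACGTCA, the E-box CACGTG and the longer palindromes known for NRF1 and for Kaiso. A GC box and an E2F match can overlap.
Srsf4, chr4:131873387-131873616, plus strand: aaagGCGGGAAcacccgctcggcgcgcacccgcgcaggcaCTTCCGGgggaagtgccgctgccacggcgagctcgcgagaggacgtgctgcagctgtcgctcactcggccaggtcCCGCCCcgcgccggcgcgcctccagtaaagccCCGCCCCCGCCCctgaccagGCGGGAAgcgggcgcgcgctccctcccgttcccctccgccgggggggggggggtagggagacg
Hnrnpa0, chr13:58128557-58128806, minus strand: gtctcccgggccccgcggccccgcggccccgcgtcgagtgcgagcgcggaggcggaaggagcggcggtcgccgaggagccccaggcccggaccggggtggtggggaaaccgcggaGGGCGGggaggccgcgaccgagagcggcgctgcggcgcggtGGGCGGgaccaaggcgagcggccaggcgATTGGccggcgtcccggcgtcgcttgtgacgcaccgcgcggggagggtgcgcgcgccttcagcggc
The Srsf4 stretch holds 33 CG pairs in 230 bases, with 3 GC boxes, 2 E2F matches and 1 ETS match. That of Hnrnpa0 holds 46 CG pairs in 250 bases, with 2 GC boxes and 1 CCAAT box. A match describes the letters and is no evidence of binding.

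**Figure D2:**
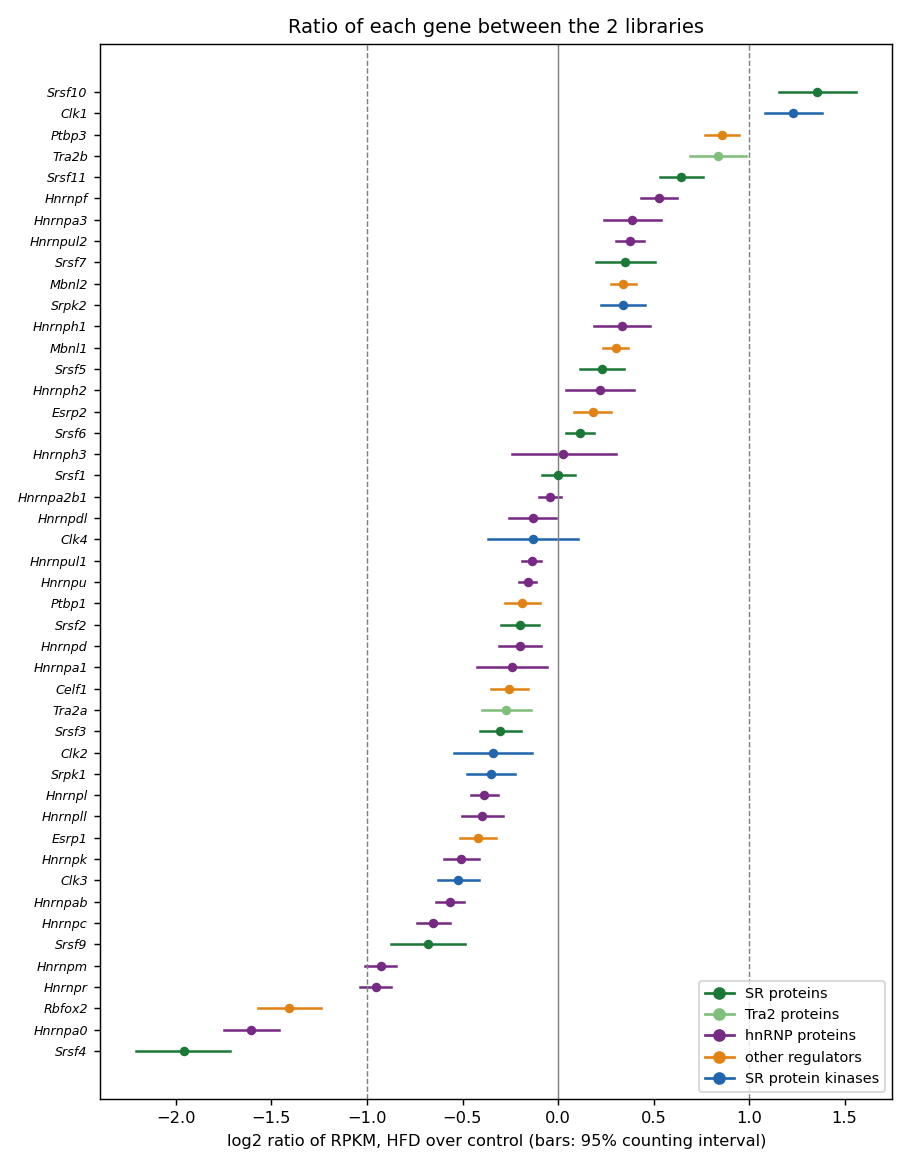
Log2 ratio of RPKM, HFD over control, for the 46 measured genes, coloured by role, with bars for the 95% counting interval and dashed lines at 2-fold. The order runs from Srsf10 at a ratio of 2.56 to Srsf4 at 0.257, and most genes lie between the dashed lines.

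The other SR genes went both ways around a group median of 0.06 on the log2(RPKM + 1) scale, which was -0.53 with HFD values scaled to the total less the 20 most abundant genes. Of 10 measured SR genes 6 were higher in HFD (background 44%) and 4 lower (background 56%) as deposited. With the trend on length and GC content removed, Srsf1 stood at a ratio of 0.836, Srsf5 at 0.990 and Srsf6 at 0.966. Srsf7 at 1.13, Srsf11 at 1.43 and Srsf10 at 2.16 stayed above 1, and Srsf3 stood at 0.669. Srsf6, the most abundant, stood at 45.7 RPKM in HFD and 42.2 RPKM in control, a ratio of 1.08 (interval 1.03 to 1.14). Srsf2, which together with Srsf1 is among the classical activators of exons, stood at 35.4 RPKM in HFD and 40.6 RPKM in control, a ratio of 0.871. Srsf1 was equal within counting error at 26.1 RPKM in both libraries, with a ratio of 1.00 (0.943 to 1.06). The 3 genes that lead the group by level thus differed by at most 1.15 times.

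Lower down, Srsf11 stood at 14.96 RPKM in HFD and 9.56 RPKM in control, a ratio of 1.56 (interval 1.45 to 1.69). Srsf9, a small member related to Srsf1, stood at 13.9 RPKM in HFD and 22.2 RPKM in control, a ratio of 0.624 (0.546 to 0.714). Srsf3 and Srsf7 encode small SR proteins linked to export of messenger RNA, but Srsf3 had a ratio of 0.811 (10.8 RPKM in HFD and 13.3 RPKM in control) and Srsf7 one of 1.28 (16.7 RPKM in HFD and 13.0 RPKM in control). Srsf5, of the same subfamily as Srsf4 and Srsf6, had a ratio of 1.17, with 24.6 RPKM in HFD and 20.9 RPKM in control. The summed level of SR genes was 199 RPKM in HFD and 201 RPKM in control as deposited, and the HFD sum was 131 to 244 RPKM under the other scalings. The shares within the sum do not depend on the scaling. Srsf9 held 6.95% in HFD and 11.0% in control, and Srsf4 held 1.27% in HFD and 4.90% in control. Srsf11 held 7.51% in HFD and 4.75% in control, and Srsf10 held 4.34% in HFD and 1.68% in control. The largest share, that of Srsf6, was 22.9% in HFD and 20.98% in control.

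The Tra2 proteins, relatives of the SR proteins that bind exons rich in GA and were first known from fly sex determination, had ratios on opposite sides of 1 as deposited, though that of Tra2a was 1.02 with summed coding RPKM as the scale. Tra2b (ENSMUSG00000022858, chromosome 16, 22244549 to 22266005, minus strand) stood at 9.06 RPKM in HFD and 5.07 RPKM in control, a ratio of 1.79 (interval 1.61 to 1.98). Tra2a stood at 8.63 RPKM in HFD and 10.4 RPKM in control, a ratio of 0.829 (0.758 to 0.907; ENSMUSG00000029817, chromosome 6, 49243924 to 49264033, minus strand). Tra2b was thus level with Tra2a in HFD, at 1.05 times its RPKM, and at 0.487 times its RPKM in control. The promoter stretches of both are given to show how the pair differs in sequence, with the same motifs in capitals.
Tra2b, chr16:22266006-22266255, minus strand: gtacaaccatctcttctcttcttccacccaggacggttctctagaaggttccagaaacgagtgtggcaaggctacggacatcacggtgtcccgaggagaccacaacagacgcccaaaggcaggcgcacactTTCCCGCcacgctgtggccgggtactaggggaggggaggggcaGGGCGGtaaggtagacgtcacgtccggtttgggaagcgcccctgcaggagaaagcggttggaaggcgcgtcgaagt
Tra2a, chr6:49264053-49264302, minus strand: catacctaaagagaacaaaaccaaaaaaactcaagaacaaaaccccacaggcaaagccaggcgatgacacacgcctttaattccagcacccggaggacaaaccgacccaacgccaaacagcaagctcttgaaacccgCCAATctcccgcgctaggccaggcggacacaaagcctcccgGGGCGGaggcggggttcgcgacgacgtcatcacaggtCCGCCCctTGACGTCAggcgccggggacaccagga
Tra2b has 1 GC box and 1 E2F match, and Tra2a has 2 GC boxes, 1 CCAAT box and 1 full CRE. Both hold fewer CG pairs, 19 and 20 in 250 bases, than the stretches of Srsf4 and Hnrnpa0.

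A RefSeq promoter was found for 40 of the 47 genes. The GC box was present in 77.5% of these and in 60.4% of 9390 measured coding genes over the same 250 bases. With the splicing genes before coding genes, a CCAAT box was present in 50% against 36.4%, an E2F match in 15% against 7.07%, an ETS match in 17.5% against 14.3%, an E-box in 12.5% against 8.48%, a TATA box in 10% against 6.21%, and a CRE in 5% against 2.74%. The NRF1 and Kaiso motifs were in none of the 40, and in 1.64% and 0.916% of coding genes. The median number of CG pairs was 22.5 in the splicing genes and 16 in coding genes. All of these are counts of letters and were not tested.

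The hnRNP genes, the largest role group, had 14 of 20 lower in HFD as deposited (70%, background 56%) and 6 higher. The majority turned to 8 lower and 12 higher when scaled to the summed RPKM of coding genes, and all 20 were lower with the total less the 20 most abundant genes. The median of coding genes moved as well, to 0.14 and -0.61. The share of coding genes lower under these scalings was not computed. The median on the log2(RPKM + 1) scale was -0.17 as deposited and 0.11 with summed coding RPKM. Their summed level was 481 RPKM in HFD and 565 RPKM in control. Hnrnpab, whose protein binds single-stranded nucleic acid, was the most abundant in control and stood at 58.3 RPKM in HFD and 86.4 RPKM in control, a ratio of 0.675 (interval 0.642 to 0.710). Hnrnpa2b1 stood at 50.7 RPKM in HFD and 52.2 RPKM in control, equal within counting error, with a ratio of 0.970 (0.932 to 1.01). Hnrnpul1 and Hnrnpu, which encode large nuclear matrix-type hnRNPs, had ratios of 0.908 (47.6 RPKM in HFD and 52.4 RPKM in control) and 0.895 (41.4 RPKM in HFD and 46.2 RPKM in control).

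Hnrnpf was the most abundant of all the splicing genes in HFD and had the highest ratio among hnRNPs. Its protein binds runs of G, as do those of Hnrnph1, Hnrnph2 and Hnrnph3. Hnrnpf stood at 58.8 RPKM in HFD and 40.8 RPKM in control, a ratio of 1.44 (interval 1.35 to 1.54) that was 0.948 with the total less the 20 most abundant genes as the scale. The H genes followed it at lower levels, Hnrnph1 with a ratio of 1.26 (11.0 RPKM in HFD and 8.69 RPKM in control), Hnrnph2 with 1.16 (9.48 RPKM in HFD and 8.14 RPKM in control) and Hnrnph3 with 1.02 (5.18 RPKM in HFD and 5.08 RPKM in control, interval 0.847 to 1.23). As deposited, the G-run binders were 4 of the 6 hnRNP genes that were higher, the others being Hnrnpul2 at a ratio of 1.298 (38.3 RPKM in HFD and 29.5 RPKM in control) and Hnrnpa3 at 1.31 (11.95 RPKM in HFD and 9.13 RPKM in control). All 6 were lower in HFD when scaled to the total less the 20 most abundant genes, and with the trend on length and GC content removed Hnrnph1 stood at 0.961, Hnrnph2 at 0.999 and Hnrnph3 at 0.968. This grouping was made after the values were seen.

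Besides Hnrnpa0, the lowest ratios among hnRNPs were those of Hnrnpr and Hnrnpm. Hnrnpr stood at 5.07 RPKM in HFD and 9.82 RPKM in control, 1.94 times lower in HFD (interval 1.83 to 2.05). Hnrnpm stood at 14.6 RPKM in HFD and 27.7 RPKM in control, 1.90 times lower (1.80 to 2.01). Hnrnpc, whose protein binds runs of U in introns, stood at 26.0 RPKM in HFD and 40.8 RPKM in control, 1.57 times lower. Hnrnpk, which binds runs of C, had a ratio of 0.704 (17.3 RPKM in HFD and 24.5 RPKM in control). Hnrnpl and its relative Hnrnpll, both binders of CA repeats, had ratios of 0.765 (31.9 RPKM in HFD and 41.7 RPKM in control) and 0.759 (7.10 RPKM in HFD and 9.35 RPKM in control), and of 0.887 and 0.610 with the trend on length and GC content removed. Hnrnpd and Hnrnpdl had ratios of 0.870 (11.5 RPKM in HFD and 13.2 RPKM in control) and 0.912 (14.9 RPKM in HFD and 16.3 RPKM in control). Hnrnpa1, known as one of the most abundant hnRNPs, had only 9.65 RPKM in HFD and 11.4 RPKM in control. Many processed copies of Hnrnpa1 exist in mammalian genomes. The copies Hnrnpa1l2-ps and Hnrnpa1l2-ps2 were at 0 in HFD and at 1.05 and 2.18 RPKM in control. Whether reads of Hnrnpa1 were assigned to such copies was not tested, so its level is uncertain.

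The remaining regulators, which are known for splicing that differs between tissues, were split, with 4 of 8 higher and a median log2(RPKM + 1) difference of -0.0027. Esrp1 and Esrp2 encode the epithelial splicing proteins. Esrp2 stood at 31.1 RPKM in HFD and 27.4 RPKM in control, a ratio of 1.13 (interval 1.06 to 1.21), and Esrp1 at 16.9 RPKM in HFD and 22.5 RPKM in control, a ratio of 0.748 (0.701 to 0.799). Both epithelial genes were well listed in both libraries. Ptbp1, the general polypyrimidine tract binder that represses many exons, stood at 25.8 RPKM in HFD and 29.4 RPKM in control, a ratio of 0.879. Its relative Ptbp3 (ENSMUSG00000028382, chromosome 4, 59471868 to 59549364, minus strand) stood at 30.4 RPKM in HFD and 16.8 RPKM in control, a ratio of 1.81 (1.71 to 1.93). Ptbp3 thus lay above Ptbp1 in HFD and below it in control, and Ptbp2, the neuronal relative, was at 0 in HFD and 1.44 RPKM in control. Mbnl1 and Mbnl2, the muscleblind proteins, had ratios of 1.23 (16.2 RPKM in HFD and 13.1 RPKM in control) and 1.27 (26.6 RPKM in HFD and 20.96 RPKM in control), but 0.945 and 1.26 with the trend on length and GC content removed, and both were lower with the total less the 20 most abundant genes. Celf1, which often acts against the muscleblind proteins, had a ratio of 0.838 (12.8 RPKM in HFD and 15.2 RPKM in control).

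Of the 6 kinase genes, 2 were higher in HFD and 4 lower, and their median on the log2(RPKM + 1) scale was -0.19, which was 0.04 when scaled to the summed RPKM of coding genes. Clk1 stood out, since Clk4, its closest relative, had a ratio of 0.912 (interval 0.775 to 1.08), with 3.37 RPKM in HFD and 3.69 RPKM in control. Clk3 was the most abundant kinase in control and stood at 9.19 RPKM in HFD and 13.2 RPKM in control, a ratio of 0.696 (0.646 to 0.750). Clk2 had a ratio of 0.789 (4.46 RPKM in HFD and 5.66 RPKM in control). Clk1 therefore held 30.2% of the summed RPKM of the kinase genes in HFD and 13.5% in control, and Clk3 held 21.8% in HFD and 32.9% in control. The largely cytoplasmic kinases had ratios of 1.27 for Srpk2 (7.38 RPKM in HFD and 5.83 RPKM in control), which was 0.833 with the total less the 20 most abundant genes and 1.00 with the trend removed, and 0.784 for Srpk1 (4.97 RPKM in HFD and 6.34 RPKM in control).

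The balance within pairs of related genes does not depend on how a library is scaled, though it can depend on the trend on length and GC content. As deposited, 8 of 12 pairs compared had a counting interval clear of 1. The share among other pairs of coding genes was not computed. Of single coding genes listed in both libraries 37.8% had an interval above 1 and 42.1% below, so an interval clear of 1 was common. The pairs among Srsf4, Srsf5 and Srsf6 share genes. The largest difference of balance was in the Srsf4 subfamily. Srsf5 stood at 9.70 times Srsf4 in HFD and 2.13 times in control, a 4.56-fold difference (interval 3.79 to 5.49), and Srsf6 relative to Srsf4 differed by 4.21-fold (3.54 to 5.01). Srsf6 relative to Srsf5 did not differ beyond counting error (0.923, 0.840 to 1.01). Clk1 stood at 3.78 times Clk4 in HFD and 1.47 times in control, a 2.57-fold difference (2.13 to 3.11). The difference was 2.16-fold for Tra2b over Tra2a (1.88 to 2.47) and 2.07-fold for Ptbp3 over Ptbp1 (1.89 to 2.26). Smaller differences were found for Srpk2 over Srpk1 at 1.62-fold, Srsf7 over Srsf3 at 1.57-fold and Esrp2 over Esrp1 at 1.52-fold. The intervals of Mbnl2 over Mbnl1 (1.03, 0.965 to 1.10), Hnrnph1 over Hnrnph2 (1.08, 0.926 to 1.27) and Clk2 over Clk3 (1.13, 0.968 to 1.33) held 1. Pair balances were not recomputed with the trend on length and GC content removed, which changed the ratios of single genes. Ptbp3 and Ptbp1 came closer, from 1.81 and 0.879 to 1.43 and 1.02. Srsf5 went from 1.17 to 0.990, and Srsf4 from 3.89 to 3.33 times lower in HFD. Esrp2 and Esrp1 moved apart, from 1.13 and 0.748 to 1.399 and 0.759. Reads from stretches that related genes share may have been split or lost, since no source used here states how such reads were counted.

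**Figure D3:**
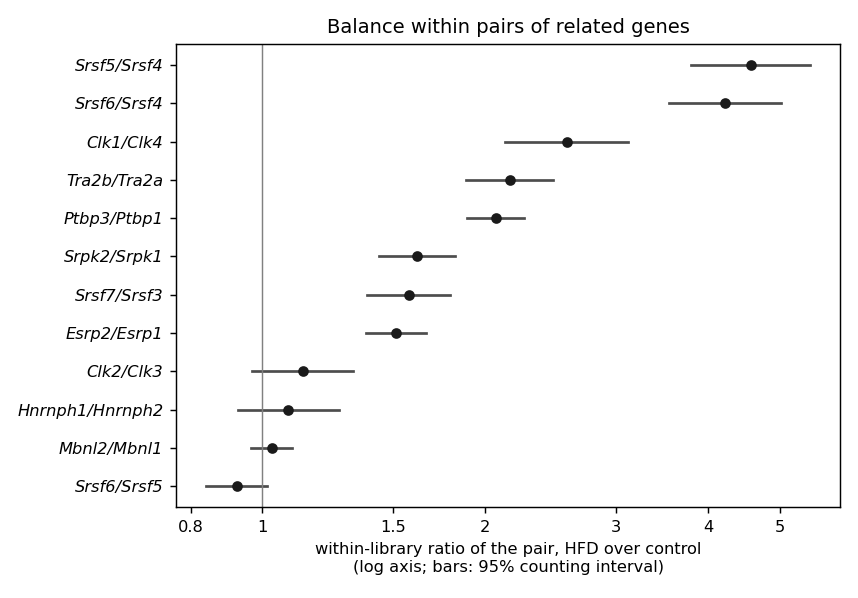
Within-library ratio of RPKM of 12 pairs of related genes, HFD over control, on a log axis with 95% counting intervals. Values are as deposited, without removal of the trend on length and GC content. The pairs with Srsf4 lie above 4, Clk1 over Clk4, Tra2b over Tra2a and Ptbp3 over Ptbp1 lie above 2, and 4 pairs have intervals that hold 1.

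The genes that differed also differed in base composition, as did genes at large. The 19 splicing genes that were higher in HFD had a median GC content of 41.0% in their longest transcript, and the 27 lower ones 46.6%. Over all measured coding genes the medians were 47.9% for higher and 51.8% for lower genes. Clk1, Tra2b, Ptbp3 and Srsf10 lay at 39.2%, 39.7%, 38.9% and 41.4%, while Srsf4, Rbfox2 and Hnrnpa0 lay at 53.0%, 51.5% and 55.4%. Other genes went the other way. Hnrnpr, Hnrnpc and Hnrnpk were lower in HFD at 41.0%, 42.9% and 42.9%, and Esrp2 was higher at 56.0%. After removal of a trend on length and GC content fitted over coding genes, the ratios were 1.42 for Tra2b and 1.43 for Ptbp3. Srsf4 was then 3.33 times lower in HFD, Rbfox2 2.48 times, Hnrnpr 2.46 times and Hnrnpa0 2.42 times. Malat1, a long noncoding RNA kept in nuclear speckles beside stored splicing factors, stood at 1403 RPKM in HFD and 840 RPKM in control, while Neat1, the core RNA of paraspeckles, stood at 75.1 RPKM in HFD and 83.3 RPKM in control. The part of nuclear RNA in the differences was not tested.

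Annotated transcripts that are not translated in full were more frequent among the splicing genes than among coding genes, though 9 of the 47, Srsf10, Hnrnpa0 and Hnrnpf among them, have neither kind described here. GENCODE lists a transcript marked for nonsense-mediated decay for 29 of the 47 genes (61.7%), and for 28.3% of measured coding genes. It lists a transcript with a retained intron for 36 (76.6%) and for 57.9% of measured coding genes. The number of annotated transcripts per gene was larger as well, with a median of 10 against 5. Clk1 has 7 transcripts with a retained intron and 2 marked for decay among 13, and Tra2b has 3 of each among 9. Srsf4 has 1 with a retained intron and 2 marked for decay among 4, and Rbfox2 has 1 and 0 among 15. Exons of 22 of the 47 genes overlap those of another gene, among them Hnrnpm, which overlaps March2 on the same strand (March2 had 6.90 RPKM in HFD and 6.73 RPKM in control), while Srsf10, Clk1, Tra2b, Hnrnpa0 and Rbfox2 overlap none. The deposited values give 1 level per gene, so they do not show how much of a level is coding messenger RNA.

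The core of the splicing machine was mostly lower in HFD. Of the core spliceosome list, 67 of 69 genes were measured, 16 higher and 51 lower (background 56%), and the median on the log2(RPKM + 1) scale was -0.47 against -0.11 over coding genes. The median stayed below 0 under all 11 alternatives, between -1.01 and -0.20. Over 2-fold lower were 17 genes (25.4%, background 20.1%) and over 2-fold higher 4 (5.97%, background 8.02%). Snrnp70, a protein of the U1 particle that recognises the start of introns, stood at 67.3 RPKM in HFD and 89.6 RPKM in control, a ratio of 0.751. Snrpb, a protein of the Sm ring, had a ratio of 0.548 (35.2 RPKM in HFD and 64.2 RPKM in control). Puf60, also among the most abundant of the list, was higher as deposited, with a ratio of 1.13 (63.6 RPKM in HFD and 56.2 RPKM in control). Of 6 Sf3b genes, whose proteins hold the branch point, 5 were lower, a grouping made after the values were seen. Sf3b5 had the lowest ratio of the list at 0.178 (4.21 RPKM in HFD and 23.7 RPKM in control), Sf3b2 had 0.727 (53.4 RPKM in HFD and 73.5 RPKM in control), and Sf3b6 had the highest at 2.63 (32.4 RPKM in HFD and 12.3 RPKM in control). U2af1, the small subunit that reads the end of introns, was listed at 0 in HFD and at 4.604 RPKM in control, 6 other genes were listed in control only, and Lsm5 and Ppih were listed in HFD only, while U2af2, the partner of U2af1, had a ratio of 0.726. Of 11976 measured coding genes 1491 were listed in control only and 488 in HFD only, together 16.5%, so such listings were not particular to this list.

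The 4 other companion lists had medians nearer to that of coding genes, of which 44% were higher and 56% lower. SR-related coactivators had a median of 0.07, with 10 of 20 higher, and -0.47 with the total less the 20 most abundant genes as the scale. Srrm2 and Son, giant scaffolds of nuclear speckles, had ratios of 1.57 (119 RPKM in HFD and 75.8 RPKM in control) and 1.63 (37.1 RPKM in HFD and 22.7 RPKM in control). Luc7l2, a partner of the U1 particle, had the highest ratio of that list at 2.10, and Sfswap, related to a fly splicing regulator, the lowest at 0.225 (3.16 RPKM in HFD and 14.0 RPKM in control). Exon junction and decay genes had a median of -0.25, with 5 of 14 higher, and Eif4a3, the anchor of the junction complex, had the lowest ratio at 0.368 (3.42 RPKM in HFD and 9.28 RPKM in control). Rnps1 was listed at 0 in HFD and at 12.1 RPKM in control. Of 39 further RNA-binding regulators 32 were measured, 11 higher and 21 lower (65.6% lower, median -0.12), from Raly at a ratio of 0.267 to Tia1 at 2.50. Rbm47, an epithelial regulator, was equal within counting error at 55.3 RPKM in HFD and 56.1 RPKM in control, and the neuronal regulators Nova1, Nova2, Rbfox1 and Rbfox3 were at 0 in both libraries. The list of further kinases and phosphatases had a median of 0.03, with Ppp1ca, a catalytic subunit of protein phosphatase 1, at 41.1 RPKM in HFD and 113 RPKM in control.

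**Figure D4:**
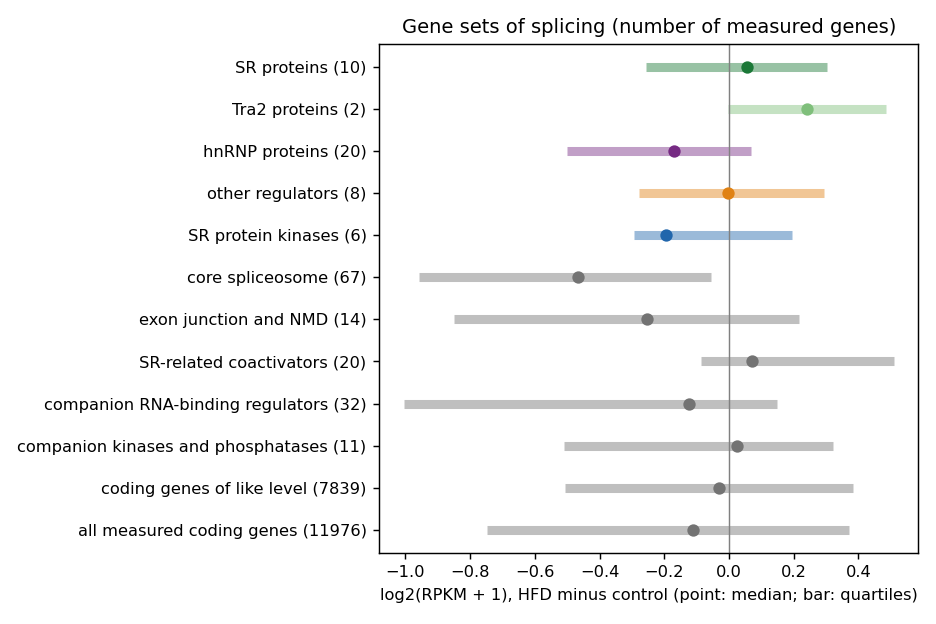
Median (point) and quartiles (bar) of the difference on the log2(RPKM + 1) scale, HFD minus control, for the role groups, the companion lists and coding genes, with the number of measured genes in brackets. The core spliceosome lies lowest, with a median of -0.47, and SR proteins, hnRNPs and kinases lie within 0.2 of 0.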

How the data were processed

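Sorted parietal cells were profiled in 1 library per diet. The deposited column holds log2 of RPKM per gene: this was read from the values by the largest value (18.2), by a smallest listed value just above 1 RPKM, and by the spacing of values of single-exon genes, of which 49.7% (HFD) and 35.6% (control) were whole within 0.005 of a step up to 12 steps. The authors' column header says RPKM only. Tools named in the submitters' processing notes are bedtools 2.25.0, with the build mm10; no source used here gives the aligner, counting rule or annotation.

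Symbols, exon lengths and GC content came from GENCODE M21, for 36308 of 38087 identifiers. The main measure was log2(RPKM + 1), HFD minus control, as deposited and without rescaling; genes at 0 were entered as 0 RPKM. Ratios are of RPKM, with exact conditional binomial 95% intervals from reads estimated by multiplying RPKM, exon length and depth; intervals for pairs used the normal approximation on the log scale. Lengths are of another annotation than the authors may have used, so intervals are approximate. No count model was run, since the files used here hold no counts, and no test between diets was possible.

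Given in full by rule are the 3 most abundant members, the highest and lowest ratio of each role, members over 2-fold or at 0 in 1 library, and paralog pairs; of each companion list, up to 4 abundant genes and, among genes of at least 50 reads, those at either end of the ratios. Other members' values follow in short, and some genes of the lists are not reported here. The rule for members uses symbols only, but members, lists and pairs were chosen with earlier results of these data known. The comparison with coding genes of like level was chosen after the data were seen. The calculations were tested on simulated reads. Python 3.11.15, numpy 2.4.6, pandas 2.3.3, scipy 1.17.1 and matplotlib 3.10.9 were used.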

Additional observations from a re-analysis of the deposited data

How the results depend on the processing

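No paired analysis was possible because each diet had 1 library, and no replicate could be left out. A median was taken as moved when it shifted by more than 0.11 on the log2 scale, the median half-width of the genes' counting intervals. Over 4 other scalings the shift of HFD values was -0.60 to 0.29, and 5 genes (Srsf10, Clk1, Srsf11, Tra2b and Ptbp3) were higher and 16 lower under all of these and as deposited, while the direction of 25 depended on the scaling. Scaled to the total less the 20 most abundant genes, the medians were -0.73 for all genes, -0.53 for SR proteins, -0.29 for Tra2, -0.74 for hnRNPs, -0.58 for the other regulators, -0.65 for kinases, -1.01 for the core spliceosome, -0.76 for exon junction and decay genes, -0.47 for SR-related coactivators, -0.63 for further RNA-binding regulators and -0.53 for further kinases and phosphatases. In the same order, scaled to the summed RPKM of coding genes, they were 0.13, 0.34, 0.51, 0.11, 0.28, 0.043, -0.20, 0.0064, 0.34, 0.12 and 0.29. With the trend on length and GC content removed, the medians were -0.054 for SR proteins, 0.012 for Tra2, -0.080 for SR-related coactivators, -0.25 for further RNA-binding regulators and -0.23 for further kinases and phosphatases. Over genes listed in both libraries those of exon junction and decay genes and of the further kinases were -0.085 and -0.18, and the further kinases had -0.33 at a minimum of 5 RPKM. The number over 2-fold higher, 2 as reported, was 0 with a pseudocount of 5 RPKM, with the total less the 20 most abundant genes and with the trend removed. In that order the backgrounds were 1.61%, 3.26% and 8.58% of measured coding genes. The number over 2-fold lower was 3 as reported, against a background of 20.1% of measured coding genes. It was 1 with a pseudocount of 5 RPKM (background 4.10%) and 4 with the trend removed, Hnrnpr being added (background 15.3%). With the total less the 20 most abundant genes it was 10, against a background of 32.1%. Of 230 recomputed ratios of single genes, 104 stayed within the counting interval and 126 left it, and no gene over 2-fold changed direction. With the longest transcript as length, 1 of 42 intervals clear of 1, that of Hnrnpdl, came to hold 1. The cause of these shifts was not tested. The depth of the control library, 9.84 M reads, limits the lower genes most.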
